A study of Mus musculus with 24 samples.

Results

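The 9 genes described here, Dazl, Boll, Ybx2, Ybx3, Cpeb1, Cpeb2, Papolb, Pabpc1 and Paip2, encode proteins that store, silence or activate messenger RNA in germ cells. They were chosen by name, for their role, from the 55536 genes of the count table, and each of the 9 was found once and was tested in both cell fractions. The study sequenced poly(A) RNA from mouse pachytene/diplotene spermatocytes (SP) and round spermatids (RS), 2 fractions enriched from testis on an albumin gradient, to examine how loss of Argonaute proteins alters germ cell expression. Males of 10 to 15 weeks on the C57BL/6J background carried no (Ago413+/+), 1 (Ago413+/-, heterozygous) or 2 (Ago413-/-, null) copies of an inherited deletion on chromosome 4 that takes out Ago1 and parts of its neighbours Ago3 and Ago4. The deletion was present in every cell of the animal, so germ cells and their supporting cells were both affected. The kept libraries were 4 Ago413+/+, 3 Ago413+/- and 3 Ago413-/- for SP, and 3, 4 and 4 for RS. Testes of 2 to 5 mice were combined for a cell preparation, and the labels put the purity of both above 70%, while the methods give a lower purity for SP than for RS.

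In male germ cells transcription stops when spermatid chromatin is compacted, so many messages are made early, held silent in ribonucleoprotein particles, and translated days later. Y-box proteins coat such messages, CPEB and DAZ family proteins bind their 3′ ends, and the length of the poly(A) tail, with the poly(A)-binding protein on it, sets whether ribosomes are recruited. Messenger RNA levels of these regulators do not show the amount or the activity of the proteins, which were not measured.

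Total counts ranged from 12825105 to 29749058 per library, and levels are given in CPM, the count of a gene relative to its library's total after TMM scaling, in units that make each total equal. Summed marker lists and the levels within ratios are in CPM of the raw totals, without TMM scaling. Ago1 had 0 counts in each of the 7 Ago413-/- libraries and 32 to 122 counts in the others. Of the cell type markers, the summed spermatocyte list was 1084 to 2393 CPM in SP libraries and 663 to 1118 CPM in RS libraries. The summed elongating spermatid list was 4542 to 16159 CPM in SP and 19615 to 43599 CPM in RS, and the round spermatid list overlapped between the fractions (1987 to 4560 CPM in SP, 2578 to 3614 CPM in RS). All genes of these 3 lists were detected in every group. The other lists were lower, at 66.5 to 124 CPM for spermatogonia, 62.1 to 292 for Sertoli cells, 3.26 to 27.8 for Leydig cells, 12.6 to 65.4 for macrophages, 7.81 to 24.8 for myoid and endothelial cells and 1.05 to 9.51 for erythrocytes. In the wild type the macrophage list (16.2 to 21.7 CPM in SP, 35.7 to 52.3 CPM in RS) and the myoid and endothelial list (9.03 to 11.9 and 17.4 to 20.9 CPM) were higher in every RS library, and their part in the fraction differences was not tested. The labels call 3 further libraries outliers, and these stood apart. In the library labelled RS Ago413+/+ replicate 3, Prm1 was 914 CPM, against 2954 to 9288 CPM in the kept RS libraries. In the libraries labelled SP Ago413+/+ replicate 3 and SP Ago413+/- replicate 4, Prm1 was 2723 and 2672 CPM and lay above the kept SP libraries (590 to 2390 CPM). They were left out of the values below, and calls of members that depend on them are named. Statements that groups or ratios did not overlap hold for the kept libraries only.

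Paip2, whose protein binds the poly(A)-binding protein and restrains translation, was higher in RS than in SP of the wild type (1.88-fold). Boll, the DAZ family member of meiotic and later germ cells, was lower (1.73-fold). A gene was called when its Benjamini-Hochberg adjusted p in the quasi-likelihood test of edgeR was under 0.05 and its log2 fold change exceeded 0.5 in size. By this rule 2 of the 9 members were called between the wild-type fractions, beside 24.2% of all genes, and both calls were lost with the outlier libraries added back. Between genotypes 0 of 9 were called, where the rule called at most 0.0518% of all genes (plot of levels by library).

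**Figure D1:**
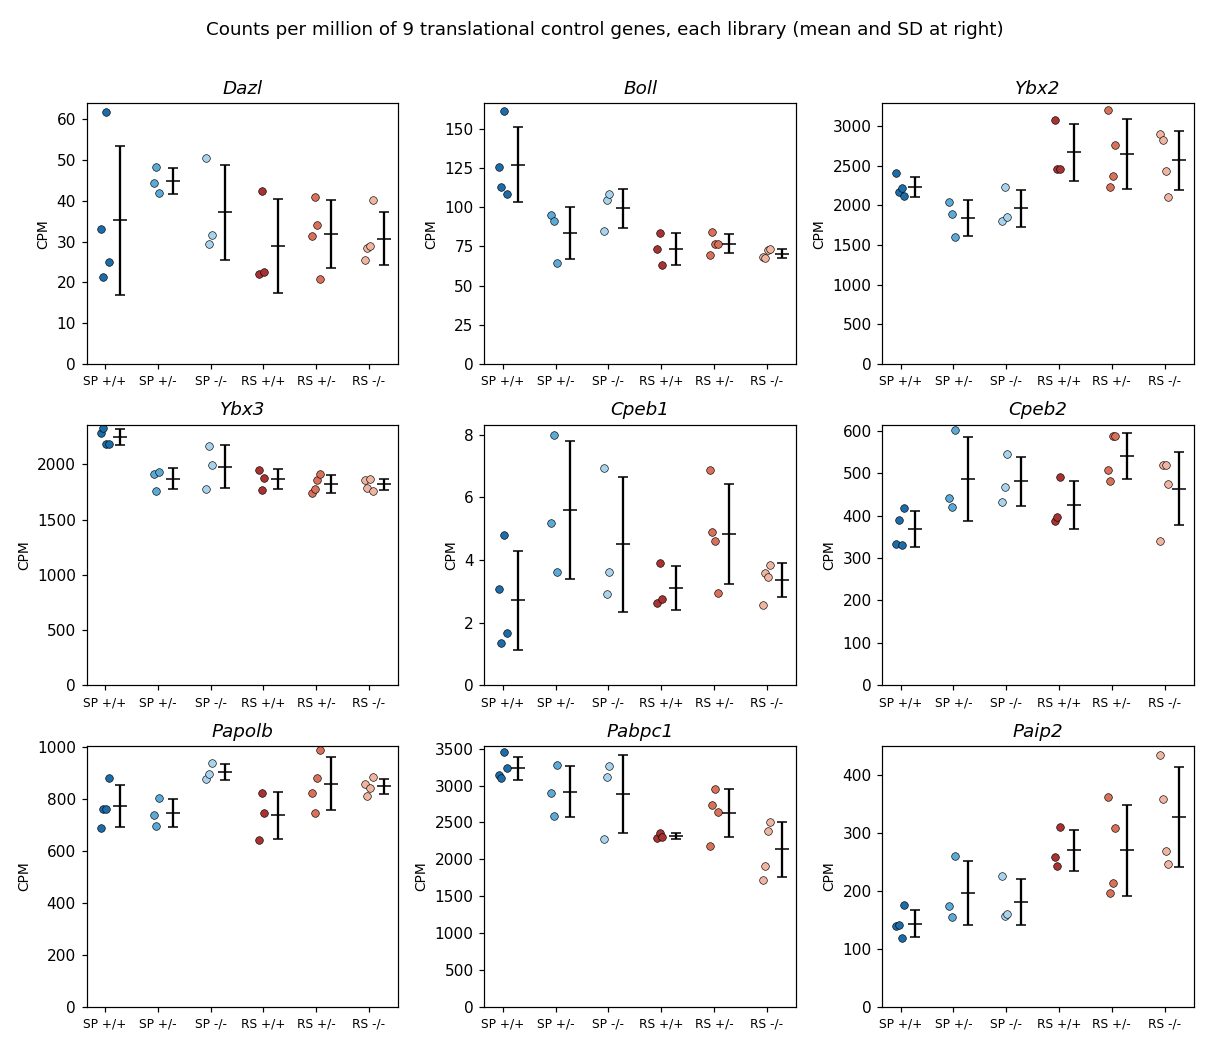
Level of each of the 9 genes in CPM (vertical axis, linear from 0) in every kept library of the 6 groups, SP in blue and RS in red, with the mean and SD of the group in black. Paip2 lies between 119 and 175 CPM in wild-type SP and between 243 and 309.9 CPM in wild-type RS, and Boll shows the opposite order.

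Levels set per kilobase of exon (the union of all annotated exons) ordered the members. In wild-type SP, Ybx2 was first at 1183 ± 68.1 CPM per kb (SD, n = 4), before Ybx3 at 730.0 ± 24.2, Pabpc1 at 494 ± 23.9 and Papolb at 182 ± 18.7. Lower levels were those of Cpeb2 (47.1 ± 5.41), Paip2 (40.5 ± 6.60), Boll (36.1 ± 6.82), Dazl (9.22 ± 4.78) and Cpeb1 (0.649 ± 0.377). Of neighbours in this order, Paip2 and Boll differed by less than the SD of either, and Cpeb2 and Paip2 by less than the SD of Paip2 but more than that of Cpeb2, while the other neighbours differed by more than either SD. In wild-type RS the order was the same except that Paip2 (76.3 ± 9.95 CPM per kb, n = 3) passed Cpeb2 (54.4 ± 7.30). Lengths from the longest transcript brought Ybx2 (1333 CPM per kb), Ybx3 (1211) and Pabpc1 (1108) closer together in wild-type SP. They placed Paip2 (91.5) above Cpeb2 (52.2) in SP too. By mean CPM over the 21 libraries, Pabpc1 stood at the 99.9th percentile of all genes tested and Cpeb1 at the 43.5th.

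Among the RNA-binding regulators, Dazl (ENSMUSG00000010592, chromosome 17, 50279395 to 50293636, GRCm38) and Boll (ENSMUSG00000025977, chromosome 1, 55248658 to 55363469) belong to the same family, whose proteins bind the 3′ ends of germ cell messages and bring in the poly(A)-binding protein. For the regions before their start sites, and before that of Papolb, windows of 150 bases from RefSeq (GRCm38.p6) are printed to show where the letters CCAAT stood. Entries were found for 6 of the 9 members. Capitals mark CCAAT, or ATTGG where it lay on the other strand, and each window runs 5′ to 3′ on the strand of the gene, at chr17:50293621-50293770 for Dazl, chr1:55363754-55363903 and chr1:55362729-55362878 for the 2 Boll starts, and chr5:142530077-142530226 for Papolb, all on the minus strand.
Dazl: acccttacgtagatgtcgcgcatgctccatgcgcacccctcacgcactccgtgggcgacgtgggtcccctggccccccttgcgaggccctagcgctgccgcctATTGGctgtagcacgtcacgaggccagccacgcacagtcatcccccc
Boll, outer start: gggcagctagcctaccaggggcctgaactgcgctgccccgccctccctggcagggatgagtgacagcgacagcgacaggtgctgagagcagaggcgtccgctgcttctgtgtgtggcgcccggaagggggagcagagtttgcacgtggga
Boll, inner start: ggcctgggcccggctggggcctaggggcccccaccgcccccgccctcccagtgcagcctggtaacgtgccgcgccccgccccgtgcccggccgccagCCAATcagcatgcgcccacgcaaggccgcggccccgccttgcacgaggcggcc
Papolb: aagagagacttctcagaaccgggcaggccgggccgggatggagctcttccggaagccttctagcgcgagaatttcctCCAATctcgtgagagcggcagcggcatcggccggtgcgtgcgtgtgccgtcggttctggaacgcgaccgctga
The letters stood 43 bases before the Dazl start, 49 before the inner Boll start and 69 before the Papolb start, and not in the outer Boll window. Ybx2 had them in 1 of its 2 windows and Ybx3 and Cpeb1 had none, which makes 4 of the 6 members and 4 of their 8 windows. They were present in 24.5% of 32851 windows of this length, counting both strands. The cyclic AMP response element TGACGTCA was in 1.36% of all windows and in none of the 6 members' windows. A match of letters is a description of sequence only.

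Boll was 125, 113, 161 and 108 CPM in the 4 wild-type SP libraries and 73.6, 83.7 and 63.2 CPM in the 3 wild-type RS libraries. All SP libraries were above all RS libraries. The share of all genes without overlap between fractions is not given here, so such separations of members cannot be judged against it. The log2 fold change (RS minus SP) was -0.79 (SE 0.16, adjusted p = 0.00137 with edgeR), and the call was lost with the outlier libraries added back (-0.51, adjusted p = 0.0673). In this comparison 24.2% of the 20404 genes tested were called, 12.7% higher and 11.4% lower, and 2 of the 9 members were called, one in each direction. In Ago413-/- libraries Boll was 84.7, 104 and 108 CPM in SP and 68.1, 67.5, 72.5 and 73.0 CPM in RS, again without overlap. The difference there was -0.50 (SE 0.16, adjusted p = 0.0305), which lay just under the fold limit. In Ago413+/- libraries it was 94.9, 91.1 and 64.4 CPM in SP and 69.3, 84.4, 76.4 and 76.8 CPM in RS, and the groups overlapped (log2 fold change -0.12, SE 0.16, adjusted p = 0.694). Over the 21 libraries Boll moved with the summed spermatocyte markers (Pearson r = 0.90, a description, with 10 SP and 11 RS libraries in 2 clusters). Within SP alone r was 0.91 and within RS 0.51. In bulk RNA, fewer cells of a type and less RNA per cell cannot be told apart. The part of fraction purity in this difference was not tested.

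Dazl, needed for germ cells to enter and pass meiosis, was 33.0, 21.3, 61.6 and 25.0 CPM in wild-type SP and 22.0, 42.2 and 22.5 CPM in wild-type RS. The groups overlapped, and the log2 fold change was -0.28 (SE 0.31, adjusted p = 0.535). The highest SP library was replicate 4, and without it the value was 0.13. In Ago413+/- animals the SP libraries (44.4, 48.2 and 41.8 CPM) lay above the RS libraries (31.3, 40.9, 33.9 and 20.9 CPM), with a difference that missed the threshold (-0.49, SE 0.31, adjusted p = 0.352). The ratio of Boll to Dazl per kb ranged from 2.84 to 5.77 in wild-type SP and from 2.15 to 3.64 in wild-type RS.

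The Y-box genes Ybx2 (ENSMUSG00000018554, chromosome 11, 69935796 to 69941605) and Ybx3 (ENSMUSG00000030189, chromosome 6, 131364855 to 131388476) encode the main packaging proteins of stored germ cell messages. Ybx2 was 2413, 2171, 2216 and 2119 CPM in wild-type SP and 3081, 2459 and 2463 CPM in wild-type RS. The libraries did not overlap, but the log2 fold change of 0.26 (SE 0.15) did not pass (adjusted p = 0.204 with edgeR). In Ago413+/- animals Ybx2 was 2041, 1888 and 1599 CPM in SP and 3206, 2234, 2373 and 2766 CPM in RS, all RS libraries being higher. It was the 1 member called there (0.52, SE 0.15, adjusted p = 0.029), where 8.89% of genes were called. The call stood just above the fold limit and was lost in 3 of 7 fits that each left out 1 library, those without RS Ago413+/- replicate 1, RS Ago413+/- replicate 4 or SP Ago413+/- replicate 3 (adjusted p up to 0.117). It was also lost with a block of consecutive library numbers (0.49, adjusted p = 0.103), with only the 2 groups in the fit (0.52, adjusted p = 0.192), with the outlier libraries (0.46, adjusted p = 0.12) and, by the fold limit alone, without a filter on low counts (0.4959, adjusted p = 0.038). In Ago413-/- libraries it was 1801, 2231 and 1852 CPM in SP and 2898, 2821, 2433 and 2108 CPM in RS (0.39, SE 0.15, adjusted p = 0.0728).

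Ybx3 showed values in the other direction in the wild type, at 2285, 2329.9, 2184 and 2181 CPM in SP against 1947, 1768 and 1875 CPM in RS. The groups did not overlap, and the log2 fold change was -0.27 (SE 0.10, adjusted p = 0.0563). Ybx3 was the steadiest member, with a range of 1.34-fold over the 21 libraries, whereas Cpeb1 spanned 5.95-fold and Paip2 3.65-fold. The ratio of Ybx2 to Ybx3 per kb, taken within each library, was 1.72, 1.52, 1.66 and 1.59 in wild-type SP and 2.58, 2.27 and 2.14 in wild-type RS. The ratio was higher in every RS library (mean 2.33 ± 0.23 against 1.62 ± 0.09, SD, n = 3 and 4), with a two-sided exact permutation p of 0.0571, the smallest this design allows, and 0.286 after adjustment over 15 ratio tests. Kept mutant libraries had 1.35 to 1.75 in SP and 1.95 to 3.01 in RS. In the wild-type libraries labelled outliers the ratio was 2.09 (SP) and 1.57 (RS), so the fractions overlap with them. With lengths from the longest transcript, kept wild-type libraries had 1.03 to 1.17 in SP and 1.45 to 1.75 in RS. With the summed elongating spermatid list Ybx2 had r = 0.73 over 21 libraries, 0.81 within RS (n = 11) and -0.096 within SP (n = 10), as descriptions. Within SP Ybx2 had r = -0.85 with the round spermatid list and 0.77 with the spermatocyte list. Ybx3 had r = 0.75 with the spermatocyte list over 21 libraries, 0.73 within SP and 0.014 within RS.

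CPEB proteins bind the cytoplasmic polyadenylation element and hold or extend the tails of their messages. Cpeb1 (ENSMUSG00000025586, chromosome 7, 81347026 to 81455465) was scarce, with 18 counts in its lowest library. Its levels were 3.08, 1.34, 4.80 and 1.66 CPM in wild-type SP and 2.64, 3.90 and 2.76 CPM in wild-type RS, which overlapped (0.19, SE 0.39, adjusted p = 0.759). Cpeb2 (ENSMUSG00000039782, chromosome 5, 43233170 to 43289724) was the more abundant paralog, 37.1 to 156 times Cpeb1 per kb in the wild-type libraries. Cpeb2 was 333, 390.0, 332 and 417 CPM in wild-type SP and 387, 398 and 490.4 CPM in wild-type RS (0.21, SE 0.16, adjusted p = 0.367). The annotation places 137 exon bases of Cpeb2 (1.75%) opposite the antisense gene Gm7854, and the strand setting of the counting is not given in the sources used here.

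Papolb (ENSMUSG00000074817, chromosome 5, 142525838 to 142530076), the testis poly(A) polymerase that lengthens tails in the cytoplasm, was 688, 762, 763 and 880.2 CPM in wild-type SP and 643, 822 and 745 CPM in wild-type RS. The fractions overlapped in the wild type (-0.07, SE 0.12, adjusted p = 0.708). Per kb it was 8.04 to 10.3 times Papola, the general nuclear enzyme, in wild-type SP and 8.82 to 9.88 times in wild-type RS. With lengths from the longest transcript these were 5.34 to 6.85 and 5.86 to 6.56 times. In Ago413-/- RS the ratio per kb of all exons was 8.01 to 8.48, below each kept wild-type RS library (8.20 ± 0.21, n = 4, against 9.37 ± 0.53, n = 3, exact permutation p = 0.0571, adjusted 0.286). Ago413+/- RS (8.37 to 8.67) and Ago413+/- SP (7.16 to 7.88) also lay below the kept wild-type libraries of their fraction, which was not tested. RS Ago413+/+ replicate 3, labelled an outlier, had 7.85, below every mutant RS library. In Ago413-/- SP the ratio overlapped the wild type (8.04 to 8.64, exact permutation p = 0.171, adjusted 0.514), as did the other 4 ratios tested in both fractions of Ago413-/- against the wild type (exact permutation p from 0.229 to 1). Papolb itself was 856, 812, 844 and 883 CPM in Ago413-/- RS (0.18 against the wild type, SE 0.13, adjusted p = 0.476). Of its 31-base words 1.76% also occur in Papola.

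Pabpc1 (ENSMUSG00000022283, chromosome 15, 36595661 to 36609668) encodes the cytoplasmic poly(A)-binding protein, which joins the tail to the initiation factors at the cap. It was 3145, 3097, 3449.8 and 3234 CPM in wild-type SP and 2293, 2355 and 2297 CPM in wild-type RS, without overlap. The log2 fold change of -0.48 (SE 0.15) passed the test (adjusted p = 0.0212) but not the fold limit. DESeq2 gave -0.51 with an adjusted p of 0.00804 and called it, as did edgeR with RLE size factors (-0.51, adjusted p = 0.0159). In Ago413-/- animals Pabpc1 was 2274, 3109 and 3271 CPM in SP and 1722, 1913, 2389 and 2508 CPM in RS (-0.44, SE 0.15, adjusted p = 0.0436). In Ago413+/- animals it was 2894, 2580.5 and 3278 CPM against 2184, 2736, 2958 and 2640.1 CPM, which overlapped (-0.15, SE 0.15, adjusted p = 0.592). Its counts are less certain than those of the other members, since 16.1% of its 31-base words also occur in other genes, and 8.69% of all its words in Gm16580.

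Paip2 (ENSMUSG00000037058, chromosome 18) was 139, 141, 119 and 175 CPM in wild-type SP and 258, 243 and 309.9 CPM in wild-type RS. Every RS library was higher, by 0.91 on the log2 scale (SE 0.23, adjusted p = 0.00565 with edgeR). In Ago413-/- animals it was 227, 156 and 160.1 CPM in SP and 434, 358, 269 and 247 CPM in RS, also without overlap, and it was the 1 member called (0.85, SE 0.23, adjusted p = 0.0146), where 17.1% of genes were called. That call was lost in 3 of 7 fits that each left out 1 library, those without RS Ago413-/- replicate 1, SP Ago413-/- replicate 2 or SP Ago413-/- replicate 3 (adjusted p up to 0.098). In Ago413+/- animals it was 174, 155 and 259.6 CPM in SP and 361, 197, 214 and 309 CPM in RS, which overlapped (0.46, SE 0.23, adjusted p = 0.236). With the 3 outlier libraries added back, edgeR called 0 of 20542 genes in wild-type RS against SP (5950 had an unadjusted p under 0.05). The differences were 0.64 for Paip2 (adjusted p = 0.0758) and -0.28 for Pabpc1 (adjusted p = 0.205).

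**Figure D2:**
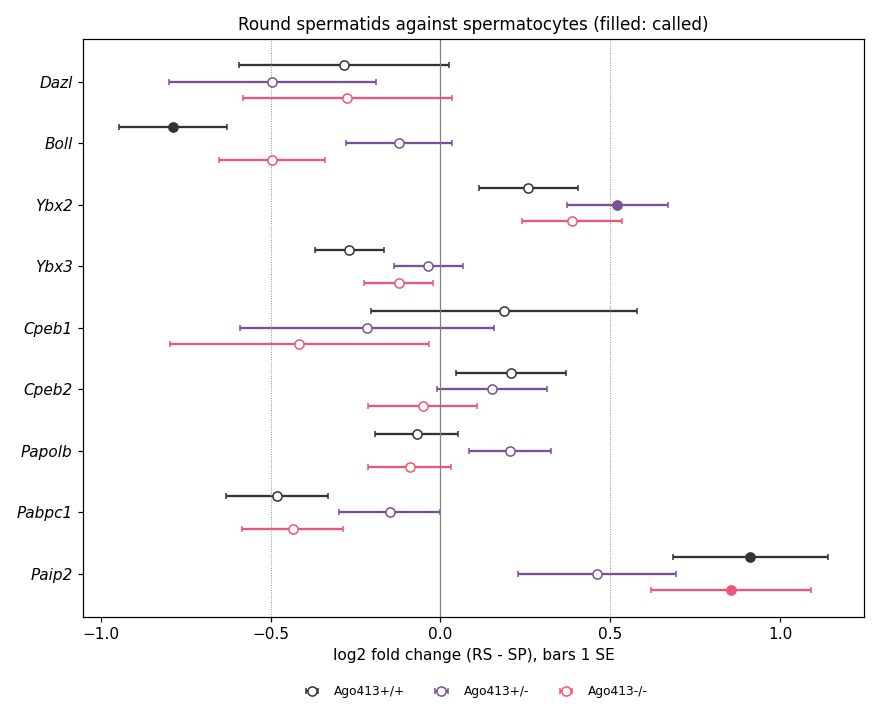
Log2 fold change of RS minus SP for each gene within Ago413+/+, Ago413+/- and Ago413-/- animals (horizontal axis). Points are filled where called, bars are 1 SE derived from edgeR, and dotted lines mark the fold limit of 0.5. Paip2 lies right of 0 and Boll and Pabpc1 left of 0 in all 3 genotypes, with the wild type farthest out for each (the difference between genotypes was not called).

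Paip2 and Pabpc1, the inhibitor and its target, had differences of opposite sign between the wild-type fractions. The within-library ratio of Paip2 to Pabpc1 per kb was 0.0814, 0.0842, 0.0637 and 0.1001 in SP and 0.208, 0.190 and 0.249 in RS. It was higher in each RS library (0.216 ± 0.030 against 0.082 ± 0.015, SD, exact permutation p = 0.0571, adjusted 0.286). In the wild-type libraries labelled outliers it was 0.136 (SP) and 0.0843 (RS), so the fractions overlap with them. Marker levels moved with both genes. The summed elongating spermatid list correlated with Paip2 at r = 0.87 and with Pabpc1 at r = -0.87 over 21 libraries, within RS at 0.92 and -0.86 (n = 11), and within SP at 0.45 and -0.78 (n = 10), as descriptions. In RS Ago413-/- replicate 1 that sum was the highest of all (43599 CPM), and so was Paip2, while Pabpc1 was at its lowest. The part of elongating cells in these values was not tested.

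**Figure D3:**
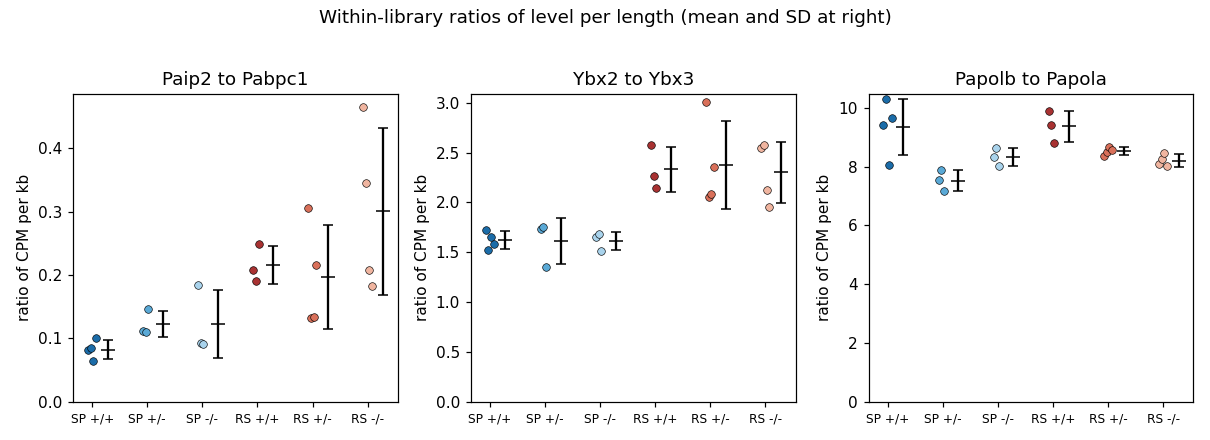
Within-library ratios of level per kilobase for Paip2 to Pabpc1, Ybx2 to Ybx3 and Papolb to Papola (vertical axes, linear from 0) in each kept library, with mean and SD in black. In the kept wild-type libraries the first 2 ratios are higher in every RS library than in any SP library. The third is lower in Ago413-/- RS (8.01 to 8.48) and Ago413+/- RS (8.37 to 8.67) than in wild-type RS (8.82 to 9.88).

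Genotype comparisons asked whether the loss of Ago1, Ago3 and Ago4 changed these messages within a fraction. In SP, Ago413-/- against Ago413+/+ gave 0 members called, beside 0.0411% of the 19450 genes tested, and log2 fold changes from -0.34 (Boll) to 0.75 (Cpeb1). Leaving out 1 library moved Cpeb1 from 0.25 (without SP Ago413-/- replicate 1) to 1.22 (without SP Ago413+/+ replicate 4) and Boll to as little as -0.15 (without SP Ago413+/+ replicate 4). An unadjusted p under 0.05 was found for 1 member, as for 30.4% of all genes, and DESeq2, which called 15.6% of genes, also called no member. The member past that unadjusted level was Cpeb2, at 431, 466 and 545 CPM in Ago413-/- SP against 333, 390.0, 332 and 417 CPM in the wild type. All 3 null libraries were higher, but the difference of 0.40 (SE 0.16) had an adjusted p of 0.121 with edgeR. Groups did not overlap for 2 of 9 members, Cpeb2 (higher) and Ybx3 (lower, 1775, 2165 and 1996 CPM, -0.16, SE 0.12, adjusted p = 0.339), beside 28% of all genes, 13.2% higher and 14.8% lower. In SP Ago413+/+ replicate 3, labelled an outlier, Cpeb2 was 530 CPM and Ybx3 1718 CPM, so neither separation holds with it.

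Ago413+/- SP were set against the same wild-type libraries, which both comparisons share, and 0 members were called (0.0257% of all genes). Of the 9, 4 had an unadjusted p under 0.05, as did 24.6% of all genes. Boll was lower in all 3 heterozygous libraries (-0.55, SE 0.19, adjusted p = 0.13) and Cpeb2 was higher in all 3 (440.5, 419.9 and 600.3 CPM, 0.45, SE 0.16, adjusted p = 0.139). Cpeb1 was 5.19, 7.97 and 3.63 CPM, overlapping the wild type (1.09, SE 0.44, adjusted p = 0.161), and Paip2 overlapped as well (0.49, SE 0.21, adjusted p = 0.18). Leaving out 1 library brought these values to as little as -0.37 for Boll, 0.27 for Cpeb2, 0.74 for Cpeb1 and 0.24 for Paip2. In all, 4 members did not overlap, 1 higher (Cpeb2) and 3 lower (Boll, Ybx2 and Ybx3), beside 17.6% of all genes (6.44% higher and 11.2% lower). With the SP libraries labelled outliers added back, none of these 4 separations holds. Between Ago413-/- and Ago413+/- SP, 0 members were called (0.00514% of genes). Papolb was higher in each null library (876, 897 and 938 CPM against 737, 695 and 803 CPM), with an adjusted p of 0.974, and was the 1 of 9 without overlap, beside 8.62% of all genes. In SP Ago413+/- replicate 4, labelled an outlier, it was 967 CPM, above each null library.

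Marker levels also moved with genotype in the same libraries. The summed spermatocyte list was 1456 to 2393 CPM in Ago413+/+ SP, 1144 to 1499 in Ago413+/- and 1084 to 1433 in Ago413-/-. The round spermatid list was 1987 to 3128, 2910.5 to 4560 and 3135 to 3725 CPM. Within the 10 SP libraries the round spermatid list had r = 0.92 with Paip2, 0.91 with Cpeb2, -0.90 with Boll, -0.85 with Ybx2, -0.64 with Ybx3 and 0.20 with Cpeb1, as descriptions. Within the 11 RS libraries these were 0.41, 0.30, -0.38, -0.26, -0.20 and -0.14. The myoid and endothelial list was 12.5 to 13.7 CPM in Ago413-/- SP, above the 9.03 to 11.9 CPM of the wild type. In RS the spermatocyte list was 663 to 922 CPM in Ago413-/-, below each wild-type library (928 to 961 CPM), and 715 to 1118 CPM in Ago413+/-. The part of these shifts in the genotype values was not tested.

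In RS, Ago413-/- against Ago413+/+ gave log2 fold changes from -0.14 (Pabpc1) to 0.24 (Paip2), with SE of 0.11 to 0.28 and 0 members called (0.0518% of 19310 genes). Without RS Ago413-/- replicate 1 these were -0.034 and 0.094, and over all fits that left out 1 library they ran from -0.26 to -0.034 and from 0.094 to 0.34. No member had an unadjusted p under 0.05, against 19.3% of genes, and the libraries of every member overlapped, against 19.4% of genes without overlap. Cpeb2, for instance, was 339, 519.8, 520.0 and 474 CPM in Ago413-/- RS. Ago413+/- RS gave 0 members called (0.0207% of genes). Cpeb1 was 6.87, 4.90, 4.59 and 2.95 CPM (0.63, SE 0.28, adjusted p = 0.551) and Cpeb2 was 507, 482, 588 and 586 CPM (0.36, SE 0.17, adjusted p = 0.56), both overlapping the wild type. Between Ago413-/- and Ago413+/- RS 0 members were called (0.00518% of genes), and Cpeb1 had the largest difference (-0.55, SE 0.25, adjusted p = 0.647). Leaving out 1 library brought this to as little as -0.32, and Cpeb1 in Ago413+/- against wild-type RS to 0.40.

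**Figure D4:**
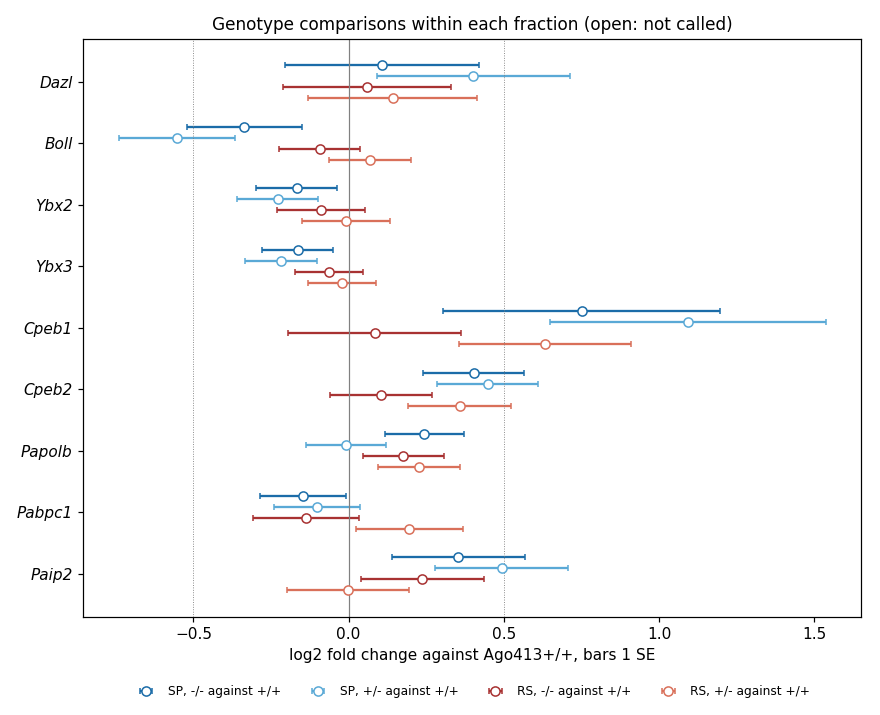
Log2 fold change of Ago413-/- and Ago413+/- against Ago413+/+ in SP (blue) and RS (red) for each gene (horizontal axis). Bars are 1 SE derived from edgeR, all points are open because none was called, and dotted lines lie at 0.5. The values run from -0.55 (Boll, Ago413+/- SP) to 1.09 (Cpeb1, Ago413+/- SP), and in RS the values farthest from 0 are those of Cpeb1 and Cpeb2 in Ago413+/- (0.63 and 0.36).

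Whether a genotype difference itself changed between fractions was tested in one model. For neither genotype was any gene called (0% of 20404 by edgeR, and by DESeq2 too, with 5.95% and 7.72% of genes at an unadjusted p under 0.05 for the null and the heterozygous effect). Among the members the lowest p was that of Boll for the heterozygous effect, which was 0.66 higher in RS than in SP on the log2 scale (SE 0.22, adjusted p = 0.637).

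The other genes of the pathway, 120 in 6 lists chosen by role, were read in the same fits. Of 111 tested, 27 were higher and 20 lower in wild-type RS than SP, a share to set beside the 24.2% of all genes, and edgeR called 0 in any genotype comparison. For Ago413-/- against Ago413+/+ SP, 37 of the 111 had an unadjusted p under 0.05, beside 30.4% of all genes, and 21 did in RS, beside 19.3%. With the outlier libraries added back, none of the fraction calls below was kept, since edgeR then called 0 of 20542 genes. Without the outlier libraries, the 111 list genes had a median log2 fold change of -0.08 in wild-type RS against SP, and all genes 0.02. Counts for each list follow with the 3 most changed genes in each direction.

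Among 30 tested RNA-binding regulators 5 were higher and 9 lower in RS. Samd4 and Samd4b, mammalian Smaug proteins that repress messages, were higher (log2 fold change 1.35, SE 0.19, adjusted p = 0.000435, and 0.96, SE 0.16, adjusted p = 0.000482), as was Msi2 of the Musashi family (0.78). Ythdc2 (-1.33) and Rbm46 (-1.25), which act at meiotic entry, and the splicing regulator Ptbp2 (-1.16) were lower. Of 17 Y-box and storage proteins 5 were lower and 0 higher. They included Larp4 (-1.11, adjusted p = 0.00153), Ddx6, a helicase of storage granules (-1.07, adjusted p = 0.0123), and G3bp1 of stress granules (-0.93, adjusted p = 0.0188).

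In the CPEB and polyadenylation list 6 of 24 were higher and 4 lower. Cpeb3, a paralog of the 2 members, was 127 ± 27.5 CPM in RS (n = 3) against 37.2 ± 12.4 CPM in SP (n = 4), a log2 fold change of 1.77 (SE 0.30, adjusted p = 0.000514). The members Cpeb1 and Cpeb2 were not called. Tent5c, a noncanonical poly(A) polymerase, was higher (1.13) and so was Cpsf4l (0.82), whereas Papolg (-1.26), the terminal uridylyltransferase Tut4 (-1.10) and Cstf2t (-0.81) were lower. Among 14 tested poly(A)-binding proteins and partners 2 were higher, Pabpc1l (0.93) and Pabpn1 (0.65), and 2 were lower, Paip1 (-1.60) and the testis paralog Pabpc6 (-1.17). Paip1, which promotes translation through the poly(A)-binding protein, was 53.5 ± 19.8 CPM in SP and 17.6 ± 1.64 CPM in RS (adjusted p = 0.000781). Its direction was opposite to that of Paip2, the inhibitor.

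Cap binding and initiation factors had 4 of 14 higher and 0 lower, led by Eif4g1, the scaffold that contacts the poly(A)-binding protein (1.27, SE 0.20, adjusted p = 0.000482), Eif4ebp1 (1.00) and Eif4h (0.97). Messages known to be stored in spermatids had 10 of 12 higher and 0 lower, with a median of 1.69. Protamine and transition protein genes led them (Prm1 2.04, Tnp2 1.99 and Prm2 1.98), and most of the elongating spermatid marker list is part of this list. Prm1 was 5334 ± 833 CPM in wild-type RS (n = 3) and 1296 ± 449 CPM in SP (n = 4).

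**Figure D5:**
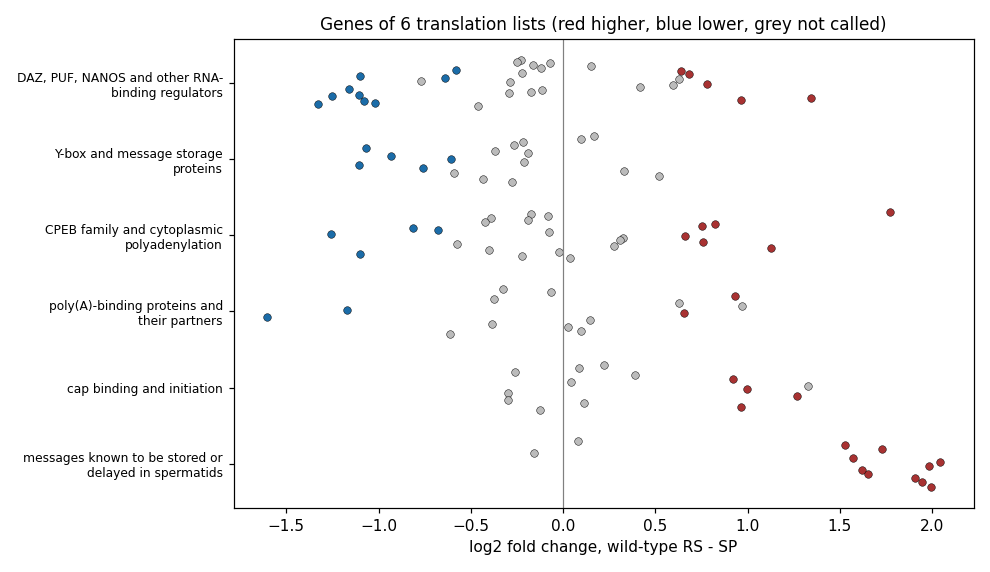
Log2 fold change of wild-type RS minus SP (horizontal axis) for the tested genes of 6 lists, 1 point a gene, red where called higher, blue where called lower and grey where not called. The stored messages lie at the right (10 of 12 called higher), and the storage proteins hold calls to the left only (5 of 17).

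Over the 21 libraries, the members fell into a group with r of 0.67 to 0.74 between Boll, Ybx3 and Pabpc1, each negatively related to Paip2 (-0.89, -0.65 and -0.83). Dazl and Cpeb1 had r = 0.75. Libraries of 2 fractions enter these values, so they describe the fractions as much as the genes. By the same measure over 20404 genes, Paip2 was most like Psma6 (r = 0.99), Tex48 (0.99) and Ms4a5 (0.99), Pabpc1 most like Cep95 (0.97), Npepps (0.96) and Rbm27 (0.95), and Boll most like Tubgcp4, Cnot7 and Cbx5 (0.95 each). Ybx2 was most like Glt1d1 (0.95), Qars (0.95) and G6pc3 (0.94), and the genes most like Ybx3 included Tm2d2 (0.93) and Gm2762 (0.92). The nearest genes were less close for Cpeb1 (Gm7972 0.91, Ddhd2 0.89, Jpt2 0.87), Papolb (Cfap69 0.89, Golga5 0.89, Nectin3 0.88), Cpeb2 (Olfr653 0.87, Wdr26 0.87, Nova2 0.86) and Dazl (Tnrc6a 0.85, Ncl 0.84, Wdr43 0.83).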

How the data were processed

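The authors deposited raw counts per gene for 24 libraries, and per the labels and methods poly(A) RNA was made into directional libraries, trimmed with Trim Galore and aligned to mm10 with STAR, whose gene counting gave the counts. STAR's version, the strand setting and the annotation release are not given in the sources used here. All 55536 identifiers were found in GENCODE M21. The 3 libraries labelled outliers were left out (21 kept). Genes that reached 10 counts in 3 libraries or more were tested with edgeR 4.0.16 (quasi-likelihood, R 4.3.3, TMM scaling, Benjamini-Hochberg over all genes tested), each fraction on its own for genotypes and all 6 groups together for fractions. DESeq2 1.42.0, RLE size factors, no filter, the outliers added back, leave-one-out, 2 groups only and a replicate block were alternatives. Each SE is the absolute log2 fold change over the square root of edgeR's F statistic. The script was tested on simulated data. A library is a pool of mice, and the labels do not say which pools are independent, so p-values measure the spread between these libraries, which may be technical in part. In 27 pairs within groups, counts differed far beyond sampling noise (chi-square per gene 9.75 to 114), so none was a repeat deposit. A count of 0 allows 3 counts, for counting error only. Correlations used log2 CPM (prior count 2), and marker sums entered as log2 of CPM without TMM scaling. The members, lists, markers and tests were chosen with earlier results of these data known. Genes named were the 9 members, the 3 most alike of each (1 is not reported here), the 3 called list genes with the largest change in each direction, any list gene called between genotypes (there was none) and Ago1. Within-library ratios were added after seeing the data.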

Additional observations from a re-analysis of the deposited data

How the results depend on the processing

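With 3 or 4 libraries a group, the SE of a member's log2 fold change was 0.10 to 0.47 between groups and up to 0.55 in the tests of a changed genotype effect, which limits what could be detected, and Cpeb1, with the fewest counts, had the widest errors. In each genotype comparison and in both tests of a changed genotype effect, 0 members were called under every alternative run. The count of all genes called moved far more: for Ago413-/- against Ago413+/+ SP, 8 genes rose to 3026 with DESeq2, 2623 without a filter, 1303 with only the 2 groups and 687 with the replicate block (same replicate number), and for RS 10 genes rose to 702 with DESeq2 and 238 without a filter. For Ago413+/- against Ago413+/+ SP, 5 genes rose to 1228 with DESeq2 and 1481 without a filter. The cause was not tested.

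Members called in wild-type RS against SP fell from 2 to 0 with the outlier libraries added back, rose to 3 (with Pabpc1) with DESeq2 and with RLE size factors, and leave-one-out fits gave 2 to 3. In Ago413+/- the 1 member called (Ybx2) fell to 0 without a filter, with the outliers, with only the 2 groups and with the block of consecutive library numbers, and leave-one-out fits gave 0 to 1. In Ago413-/- the 1 member called (Paip2) became 2 (with Boll) with DESeq2, RLE size factors, no filter or only the 2 groups, and leave-one-out fits gave 0 to 3.

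Pairing was examined with 2 numberings. Libraries with consecutive library numbers, an RS and an SP library of the same genotype, deviated together in 8 of 9 pairs (r above 0.1, lowest -0.14). The labels do not say whether such a pair came from a single preparation, and these correlations cannot decide it. The main fits treated all libraries as independent. Libraries with the same replicate number deviated together in 4 of 7 SP and 0 of 10 RS pairs. With the block of consecutive numbers, Ybx2 in Ago413+/- was 0.49 (adjusted p = 0.103) and no other call of a member changed. The replicate block turned the sign of 3 uncalled values, Papolb in Ago413+/- SP (0.038), and Ybx2 (0.017) and Paip2 (0.051) in Ago413+/- RS, and the block of consecutive numbers that of Cpeb1 between fractions in Ago413+/- (0.0051).

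The other values that changed sign were small and not called. A term for library numbers above 60 gave 0.038 for Papolb in Ago413+/- SP. Without a filter, Ago413+/- RS gave 0.031 for Ybx2, 0.011 for Ybx3 and 0.042 for Paip2. With the outliers, Papolb was 0.094 in Ago413+/- SP, Ybx2 0.044 and Cpeb1 -0.060 in Ago413-/- RS, Boll -0.13, Ybx2 0.097 and Paip2 0.14 in Ago413+/- RS, Papolb 0.018 between wild-type fractions and Cpeb1 0.021 between Ago413+/- fractions. The log2 ratios became 0.12 for Ybx2 to Ybx3 and 0.040 for Cpeb2 to Cpeb1 in Ago413-/- RS and -0.029 for Papolb to Papola between wild-type fractions.

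Leaving out 1 library turned the sign in some fit of 23 of 91 results, none of them called. The ranges were -0.22 to 0.57 for Dazl in Ago413-/- SP and -0.070 to 0.071 for Papolb in Ago413+/- SP. In Ago413-/- RS they were -0.13 to 0.46 for Dazl, -0.19 to 0.027 for Boll, -0.15 to 0.022 for Ybx2 and -0.031 to 0.31 for Cpeb1. In Ago413+/- RS they were -0.056 to 0.55 for Dazl, -0.032 to 0.19 for Boll, -0.14 to 0.076 for Ybx2 and -0.19 to 0.11 for Paip2. Between fractions they were -0.66 to 0.13 for Dazl, -0.019 to 0.61 for Cpeb1 and -0.15 to 0.020 for Papolb in the wild type, -0.47 to 0.13 for Cpeb1 in Ago413+/-, and -0.43 to 0.012 for Dazl, -0.65 to 0.039 for Cpeb1 and -0.13 to 0.072 for Cpeb2 in Ago413-/-. For log2 ratios they were -0.034 to 0.043 (Ybx2 to Ybx3) and -0.80 to 0.019 (Cpeb2 to Cpeb1) in Ago413-/- SP, -0.083 to 0.052 and -0.24 to 0.17 in Ago413-/- RS, and -0.52 to 0.17 (Cpeb2 to Cpeb1) and -0.064 to 0.056 (Papolb to Papola) between wild-type fractions.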

Other observations

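The fraction difference of the pathway lists was also read in the other genotypes. Cap binding and initiation factors had 4 of 14 genes higher and 0 lower in RS of the wild type, 3 and 0 in Ago413+/- and 7 and 0 in Ago413-/-. Stored messages had 10, 9 and 10 of 12 higher in the same order. For Y-box and storage proteins, 5, 0 and 1 of 17 were lower. Whether these counts differ between genotypes was not tested, and the share of all genes called differed too (24.2%, 8.89% and 17.1%).

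The libraries labelled outliers differed in how the members stood. In the library labelled RS Ago413+/+ replicate 3, Boll was 113 CPM, Pabpc1 3365 CPM, Ybx2 1738 CPM and Paip2 154 CPM, each outside the kept RS range and inside the kept SP range. Cpeb1 (4.50 CPM), Cpeb2 (537 CPM) and Papolb (974 CPM) lay above its own group but inside the kept RS range, and Dazl and Ybx3 inside its own group. In the library labelled SP Ago413+/+ replicate 3, Boll was 85.1 CPM, Ybx3 1718 CPM, Pabpc1 2725.5 CPM, Paip2 201 CPM, Cpeb2 530.4 CPM and Cpeb1 4.96 CPM, each outside its own group, and its Sycp3 was 38.8 CPM against 87.4 to 204 CPM there. In the library labelled SP Ago413+/- replicate 4, Boll (72.7 CPM), Pabpc1 (2982 CPM) and Paip2 (247 CPM) lay inside their own group, as did Cpeb2 (589 CPM). Ybx2 (2199 CPM), Ybx3 (2001 CPM) and Papolb (967 CPM) lay above their own group, and Dazl (21.3 CPM) and Cpeb1 (2.17 CPM) below it.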
